A study of Mus musculus with 17 samples.

Results

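The genes described here are 34 genes of the lysosome. They comprise 6 membrane proteins, 10 proteases, 10 enzymes that act on sugar chains, 5 genes grouped under lipid breakdown (Grn included), and 3 others. The 3 are the transcription factors Tfeb and Tfe3, and Cln6, a membrane protein of the endoplasmic reticulum. All 34 were picked by gene symbol and were found among the 47069 genes listed in the overexpression table. RNA sequencing read counts were available for 17 libraries of mouse fetal liver cells, taken at E12.5 to E13.5 from a strain that carries Cas9 and EGFP at the Rosa26 locus. All groups but WT carried the Gata1 guide sgGata1; the study calls them Gata1s cells, for the shortened GATA1 transcription factor.

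LUC (a luciferase control, n = 3) and Arid3a (an Arid3a transgene, n = 3) had doxycycline at 1 µg/mL for 48 h. The groups sh-ctrl (a control hairpin, n = 3), shArid3a (a hairpin against Arid3a, n = 2, numbered 1 and 3) and miR-125b (n = 3) had the same dose for 10 days. WT (n = 3) had luciferase as the target of both its guide (sgLuc) and its hairpin (shLuc), and no doxycycline was given. All 17 libraries share the Cas9 strain. The labels name no clone, embryo pool or sort, so the p-values measure only the spread between these libraries, which may be technical. The study, by its title, asks how miR-125b and the short GATA1 act together in megakaryoblastic leukemia through Arid3a, a transcription factor.

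Lysosomes are acidic organelles in which hydrolases break down proteins, glycans and lipids delivered by endocytosis and autophagy. Most soluble hydrolases receive a mannose 6-phosphate tag in the Golgi and are carried onward by receptors for that tag, while a proton pump, the V-ATPase, keeps the lumen acidic. The transcription factors TFEB and TFE3 bind an E-box with the core CACGTG in the promoters of many lysosomal genes, and mTORC1 on the lysosomal surface holds them in the cytoplasm when nutrients are plentiful. In megakaryocytes and platelets, lysosomes and related granules also store material for release. A microRNA such as miR-125b lowers transcripts whose 3′ untranslated region (UTR) pairs with its seed, bases 2 to 8.

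The mature miR-125b-5p sequence in RefSeq (GRCm38.p6) is the same for the Mir125b-1 gene on chromosome 9 and the Mir125b-2 gene on chromosome 16. It is shown because the miR-125b libraries are the ones in which most members changed, with the seed in capitals.
miR-125b-5p: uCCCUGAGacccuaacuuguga
In annotated 3′ UTRs (GENCODE M21, GRCm38), the complement of the seed, CTCAGGG, was searched on the transcript strand. A match followed by A is an 8mer (CTCAGGGA), and one without it is a 7mer-m8. Of the 34 members, 7 held at least 1 match (20.6%), against 13.7% of 21037 genes with a UTR, and 4 held an 8mer (11.8%), against 4.9%. The stretches below carry the matches of the member that fell most, Cln6, of the other 8mer members, and of M6pr, a receptor for the mannose 6-phosphate tag that is described with the sorting genes. Capitals mark the match.
Cln6, 7mer-m8, chr9:62851215-62851241, plus strand: gtgagggctgCTCAGGGcagaagcagg
Cln6, 8mer, chr9:62851882-62851909, plus strand: ttctgctgttCTCAGGGActttgcctca
Gaa, 8mer, chr11:119281291-119281318, plus strand: ctacatgcgtCTCAGGGAggactgacca
Neu1, 8mer, chr17:34935135-34935162, plus strand: cagatacgaaCTCAGGGAactgagaagg
Sgsh, 8mer, chr11:119344928-119344955, minus strand: ctgagcaggtCTCAGGGAgtacccccac
M6pr, 8mer, chr6:122317290-122317317, plus strand: ctcctgctggCTCAGGGAagtgtctgac
Ctsa and Gla each held 2 matches of the 7mer-m8 kind, and Ctsc held 1. Both Cln6 matches lie in 1 of its 2 coding transcripts with a UTR.

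The second set of sequences shows the E-box. RefSeq promoter windows (GRCm38.p6, 250 bases before to 50 after the start site) were held for 31 members. The core CACGTG, which reads the same on both strands, was in 12 of these 31 windows (38.7%), against 8.09% of 27025 genes. The 8-base form TCACGTGA, also the same on both strands and containing the core, was in 5 (16.1%), against 1.12%. The windows below are those of the 8-base form and of the members with a core that changed in the miR-125b libraries, on the strand of the gene, with the match in capitals.
Ctsa, chr2:164833751-164833776, plus strand: agcaaactgTCACGTGAtgcagatgc
Ctsa, chr2:164833768-164833793, plus strand: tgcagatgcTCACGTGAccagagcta
Ctsd, chr7:142387910-142387935, minus strand: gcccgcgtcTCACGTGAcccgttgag
Cln3, chr7:126583342-126583367, minus strand: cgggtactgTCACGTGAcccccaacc
Gla, chrX:134601184-134601209, minus strand: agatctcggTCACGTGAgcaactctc
Gla, chrX:134601217-134601242, minus strand: agcgattgaTCACGTGAgcatctacg
Mcoln1, chr8:3500464-3500489, plus strand: gcgccccgcTCACGTGAccgcggcgc
Lamp1, chr8:13159090-13159115, plus strand: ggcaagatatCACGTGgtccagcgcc
Glb1, chr9:114401020-114401045, plus strand: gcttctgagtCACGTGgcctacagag
Naglu, chr11:101070011-101070036, plus strand: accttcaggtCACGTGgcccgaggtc
Lamp1 had 4 cores, all within 61 bases before its start site, more than any of the other 11 genes. Ctsl, Gaa, Lgmn and Sgsh held a core alone. A match is a description of letters and shows no binding.

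**Figure D1:**
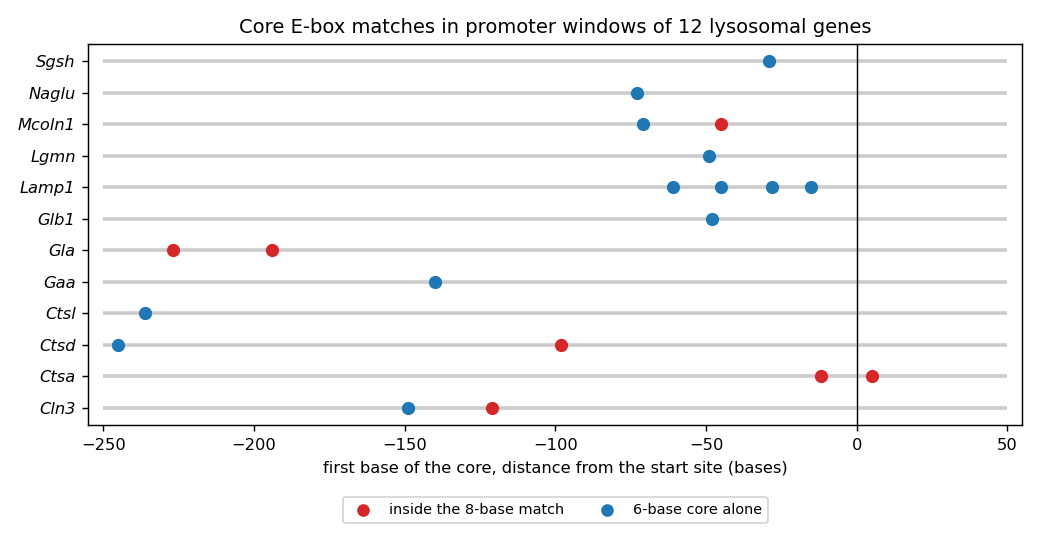
Positions of CACGTG in the promoter windows of the 12 lysosomal genes that hold it; the x axis is the distance of the core's first base from the start site in bases, red points lie inside TCACGTGA and blue points are the core alone. Lamp1 has 4 cores between 61 and 15 bases before the start site, and Ctsa has 1 core on each side of it.

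The 6 LUC and Arid3a libraries held between 31339238 and 38678649 counts, the 8 hairpin and miR-125b libraries between 31992089 and 40859301, and the 3 WT libraries between 16362439 and 19212193. Levels are CPM, read counts scaled to a common library size, with TMM scaling, a correction for library composition, over the 17 libraries. The target gene Arid3a was not higher in the libraries labelled Arid3a: it ranged from 53.3 to 74.5 CPM there and from 59.3 to 64.7 in LUC (log2 fold change 0.08, edgeR adjusted p = 0.737), so no direction below is assigned to more Arid3a. It fell by 1.43 on the log2 scale with shArid3a (edgeR adjusted p = 0.0368) and by 2.56 with miR-125b (edgeR adjusted p = 0.000282). The log2 fold change of Gata1 lay between -0.47 and -0.22 in the 4 comparisons, none called. Library 1 of the group labelled Arid3a stands apart: it had the highest level of its table's 6 libraries for 20 of the 34 members, against 21.2% of the 12274 genes with a mean of 1 CPM or more over all libraries, and its mast cell marker sum (12 genes) was 937.9 CPM against 384.2 to 503.9 in the other 5. Ribosomal RNA-like genes summed to 380 to 725 CPM in sh-ctrl, 3380 to 3935 in shArid3a and 2867 to 3805 in miR-125b, so they move with both comparisons against sh-ctrl.

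Megakaryocyte and platelet markers (12 genes) were the largest of the cell type marker sums in all 14 Gata1s libraries, at 2901 to 5361 CPM. In the WT libraries they summed to 1285 to 1499 CPM. Macrophage and monocyte markers (16 genes) reached 5.37 to 52.7 CPM in the Gata1s libraries and 5715 to 6915 CPM in WT. Lyz2 alone had a WT mean of 5344 CPM, and 12 of the 16 genes had a WT mean of 1 CPM or more. Vsig4 and Marco, at 0 in all 14 Gata1s libraries, were low in WT too (means 0.0333 and 0.632 CPM). The WT mean of Timd4 (0.0150 CPM) was below that of the libraries labelled Arid3a (0.153). Neutrophil granule markers (11 genes) were split as the macrophage sum was, at 5.11 to 164.9 CPM against 12360 to 17470 in WT. Mast cell and basophil markers (12 genes) summed to 201.7 to 937.9 CPM in the Gata1s libraries and 1795 to 2070 in WT. Within that list, the WT mean of Fcer1a (0.585 CPM) was below that of every Gata1s group, and the WT mean of Gata2 lay among theirs.

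Per kilobase of gene length, the most abundant of the 34 in sh-ctrl was Cd63, a tetraspanin of late endosomes and platelet granules, at 515.4 ± 86.0 CPM per kb (SD, n = 3). Ctsd, the aspartic protease cathepsin D, followed at 231.6 ± 31.5, and Lamp1, a heavily glycosylated protein that lines the lysosomal membrane, at 92.2 ± 10.7. Psap, the precursor of the saposins that help lipid hydrolases, was at 50.9 ± 2.29 CPM per kb, and Ctsz, cathepsin Z, at 47.7 ± 4.57. These 2 neighbours lay within their spread of each other, and Cd63, Ctsd and Lamp1 were separated by more than theirs. LUC had the same first 5 genes in the same order. In WT the order was Cd63 at 341.7 ± 62.0, Psap at 323.2 ± 18.3 and Ctsd at 297.7 ± 19.7 CPM per kb, and these 3 overlapped within their spread.

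Most of the 34 genes were expressed in every library, and a few proteases were close to 0 in all Gata1s cells. Of the 34, 25 were higher in each WT library than in all 14 Gata1s libraries, against 19.2% of the 12274 genes with a mean of 1 CPM or more, and 1, Smpd1, was lower in each, against 20.3%. With library totals in place of TMM, 29 were above and 1 was below. This is a description with no test, because WT differs in guide, hairpin, doxycycline and table at once, and some members reach the mean of 1 CPM only through WT. In bulk RNA, fewer cells of a type and less RNA per cell cannot be told apart. The part of the macrophage, neutrophil and mast cell markers in these WT levels was not tested.

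Besides Sgsh, the lowest Gata1s levels belonged to proteases known from antigen-presenting and phagocytic cells. Ctss, cathepsin S (ENSMUSG00000038642, chromosome 3, 95526786 to 95556403, GRCm38), had 200.5, 195.8 and 205.4 CPM in the WT libraries and 0 counts in all 8 sh-ctrl, shArid3a and miR-125b libraries. A count of 0 there allows up to 0.107 CPM (3 counts in the library with the smallest total after TMM scaling, counting error only). Its LUC values were 0.490, 0.342 and 1.48 CPM and its values in the libraries labelled Arid3a were 0.0504, 0.137 and 1.87. The highest of these, 1.87 CPM in library 3 labelled Arid3a, stood beside a macrophage marker sum of 12.8 CPM, and the 1.48 of LUC library 3 beside 52.7. LUC library 3 also had a neutrophil granule sum of 150.6 CPM, against 5.11 and 5.88 in LUC libraries 1 and 2. The miR-125b libraries had macrophage sums of 21.8 to 31.0 and 0 counts of Ctss. Lyz2 alone averaged 15.6 CPM of that sum with miR-125b and 17.2 in LUC. The source of the Ctss counts was not tested. Ctsh, cathepsin H, had 45.4 to 54.7 CPM in WT and at most 1.66 in the Gata1s libraries, reached in LUC library 3. Ctsl, cathepsin L, was at 68.5 to 80.8 CPM in WT and 0.320 to 3.14 in Gata1s cells. Lgmn, legumain, an endopeptidase that matures other cathepsins, was at 41.9 to 50.3 CPM in WT and 0.449 to 3.41 in Gata1s cells.

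Other proteases were expressed in all groups. Ctsb, cathepsin B, ranged from 84.5 to 157.5 CPM in the 14 Gata1s libraries and from 478.5 to 549.8 in WT, and Ctsc, which activates granule serine proteases, from 56.9 to 82.3 and from 301.9 to 364.1. Ctsz ranged from 35.4 to 122 CPM in Gata1s cells and from 231.7 to 274.3 in WT. Ctsa, a carboxypeptidase that also stabilizes the enzymes made by Glb1 and Neu1, ranged from 63.8 to 114.3 and from 159.4 to 178.8 CPM. Tpp1, a tripeptidyl peptidase, lay close to its WT level, at 48.4 to 90.3 CPM against 94.7 to 99.0. Ctsd overlapped with WT, at 449.7 to 837.9 CPM against 708.3 to 804.7.

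Most membrane proteins were also higher in WT. Lamp1 ranged from 192.6 to 343.5 CPM in Gata1s cells and from 424 to 446.5 in WT, and Lamp2, its relative, needed for autophagy, from 96.6 to 153.8 and from 255.8 to 313.4. Scarb2, the carrier of glucocerebrosidase, ranged from 7.92 to 26.1 CPM in Gata1s cells and from 65.9 to 80.7 in WT. Cln3, a membrane protein mutated in juvenile Batten disease, was at 15.7 to 23.2 CPM against 40.6 to 54.5. Mcoln1, the calcium channel TRPML1, overlapped with WT at 15.3 to 26.2 CPM against 25.1 to 37.9. Cd63 overlapped as well, at 310.2 to 988.6 CPM against 306.1 to 425.3.

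Among the enzymes of sugar chains, Hexa, a subunit of beta-hexosaminidase, ranged from 25.2 to 86.9 CPM in the Gata1s libraries and from 180.5 to 206.5 in WT. Man2b1, an alpha-mannosidase, had 93.8 to 153.3 CPM against 348.6 to 367, and Manba, a beta-mannosidase, 6.30 to 18.6 against 50.8 to 60.0. Gla, alpha-galactosidase, had 13.2 to 24.2 CPM against 49.9 to 52.7, and Neu1, a sialidase, 4.21 to 24.9 against 59.8 to 86.9. These 5 did not overlap with WT. Sgsh, a sulfatase of heparan sulfate, was the least abundant in WT, at 4.92 to 6.18 CPM, and had 0.0272 to 4.28 in Gata1s cells. Gaa, acid alpha-glucosidase, overlapped, at 31.7 to 80.7 CPM against 65.0 to 68.7, as did Glb1, beta-galactosidase, at 39.2 to 89.7 against 77.8 to 81.6. Gusb, beta-glucuronidase, overlapped at 105.9 to 185 CPM against 158.2 to 190.9. Naglu, which acts on heparan sulfate, did so at 24.2 to 48.5 CPM against 29.7 to 36.5.

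The lipid genes held both the widest gap in absolute level and the 1 member that was lower in WT. Psap ranged from 118 to 202.2 CPM in Gata1s cells and from 829 to 920.1 in WT. Grn, progranulin, had 46.6 to 107.8 CPM against 312.6 to 349.2, Asah1, acid ceramidase, 39.5 to 66.0 against 160.8 to 185.9, and Lipa, acid lipase, 10.9 to 28.7 against 59.6 to 68.3. Smpd1, acid sphingomyelinase, ran the other way, at 53.8 to 101.5 CPM in Gata1s cells and 23.4 to 29.0 in WT. Of the transcription factors, Tfeb had 3.14 to 13.6 CPM against 15.4 to 23.8 in WT and Tfe3 24.01 to 34.3 against 37.6 to 42.7. Cln6, a membrane protein of the endoplasmic reticulum that helps newly made hydrolases leave it, overlapped at 37.1 to 103.6 CPM against 46.9 to 52.5.

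**Figure D2:**
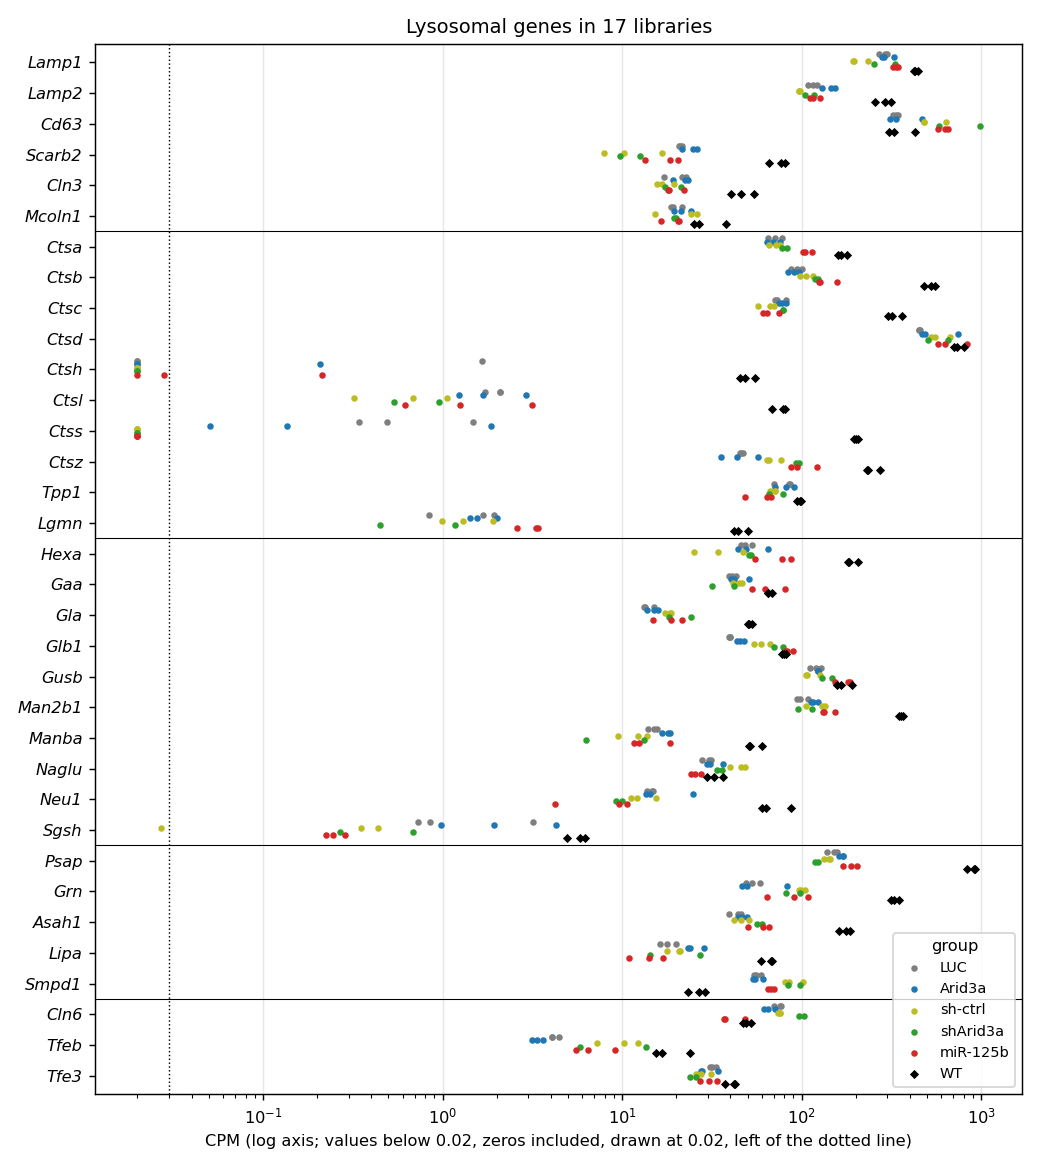
Levels of the 34 lysosomal genes in 17 libraries, in groups from membrane proteins (top) to Tfeb, Tfe3 and Cln6 (bottom). The x axis is CPM with TMM scaling on a log axis, each point is 1 library, and WT is drawn as black diamonds. WT lies to the right of all 14 Gata1s libraries for 25 genes, and Ctsh and Ctss sit at or near 0 in Gata1s cells.

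With miR-125b, 7 members rose and 3 fell against sh-ctrl. The rise took in Lamp1, the proteases Ctsa and Ctsz, the glycosidases Hexa, Gusb and Glb1, and Psap, with log2 fold changes of 0.40 to 1.02. Cln6, Naglu and Smpd1 fell. The fit was edgeR's quasi-likelihood test on the counts of the 8 libraries, with Benjamini-Hochberg adjustment over 14004 genes and a threshold of 0.05. Ctsh and Ctss did not pass the filter on low counts, so 32 of 34 members were tested and 10 were called, against 24.4% of all genes tested. Called higher were 12.1% of all genes and called lower 12.2%. The median log2 fold change over the 32 was 0.20, against -0.03 over all genes, and 21 were above 0. Where library totals replace TMM, the median of all genes moves to -0.22 and that of the members to 0.02, and 6 members are called, 3 in each direction. Among all genes the calls are then 890 higher of 3342, against 1700 of 3414.

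Cln6 (ENSMUSG00000032245, chromosome 9, 62838785 to 62852006, plus strand, GRCm38) had the lowest adjusted p of the members. It had 74.2, 76.1 and 75.4 CPM in sh-ctrl and 48.2, 37.4 and 37.1 with miR-125b. The miR-125b libraries lay far below the sh-ctrl libraries, whose values differed little. The log2 fold change was -0.90 (SE 0.134, edgeR adjusted p = 0.00548). It remained called in all 14 alternative analyses, with edgeR or DESeq2 adjusted p from 7.56e-06 to 0.0244. Gm10653, on the other strand, overlaps an exon of Cln6 and had 0 to 13 counts per library, against 1224 to 3460 for Cln6.

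Naglu (ENSMUSG00000001751, chromosome 11, 101070012 to 101077672, plus strand) had 39.98, 46.2 and 48.5 CPM in sh-ctrl and 24.2, 25.6 and 27.4 with miR-125b. The groups did not overlap, the log2 fold change was -0.82 (SE 0.138, edgeR adjusted p = 0.00651), and the call also held in all 14 alternatives. Unlike Cln6, Naglu held no seed match, and its promoter window has the core printed above. Smpd1 had 101.5, 80.7 and 85.4 CPM in sh-ctrl and 67.4, 70.4 and 64.6 with miR-125b. Its log2 fold change was -0.42 (SE 0.133, edgeR adjusted p = 0.0425), and the call held in 1 of 6 fits that left out 1 library.

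Lamp1 (ENSMUSG00000031447, chromosome 8, 13159161 to 13175338, plus strand) had 192.6, 235.6 and 195.3 CPM in sh-ctrl and 333.4, 343.5 and 322 with miR-125b. All miR-125b values lay above all sh-ctrl values, and the log2 fold change was 0.66 (SE 0.141, edgeR adjusted p = 0.0125). Lamp2 had 98.2, 97.1 and 96.6 CPM and then 115.5, 110.7 and 126.5. Its groups did not overlap either, but it was not called, at 0.26 (SE 0.113, edgeR adjusted p = 0.121). Cd63, with 477.7, 633.7 and 482.8 CPM and then 630.3, 577.3 and 654.6, overlapped and was not called (log2 fold change 0.20, edgeR adjusted p = 0.471).

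Hexa (ENSMUSG00000025232, chromosome 9, 59539540 to 59565109, plus strand) had 47.4, 34.3 and 25.2 CPM in sh-ctrl and 77.7, 55.2 and 86.9 with miR-125b. The log2 fold change was 1.02 (SE 0.236, edgeR adjusted p = 0.0158), 0.84 with library totals, and the spread was wide in both groups. Gusb had 107.3, 125.9 and 105.9 CPM and then 185, 153.7 and 181.4 (log2 fold change 0.60, edgeR adjusted p = 0.0142). Glb1 had 59.6, 66.5 and 54.3 CPM and then 80.3, 82.9 and 89.7 (log2 fold change 0.47, edgeR adjusted p = 0.0281). In all 3 glycosidases the miR-125b libraries lay above the sh-ctrl libraries.

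The protease Ctsa had 65.8, 76.1 and 72.3 CPM in sh-ctrl and 102, 104.9 and 114.3 with miR-125b (log2 fold change 0.57, SE 0.118, edgeR adjusted p = 0.0115). Its UTR holds 2 seed matches. Ctsz had 65.7, 76.3 and 64.2 CPM and then 122, 93.9 and 86.9 (log2 fold change 0.53, edgeR adjusted p = 0.0294), with miR-125b library 1 as the high point. Psap had 142.9, 143.8 and 132.5 CPM and then 169.6, 202.2 and 188.9 (log2 fold change 0.40, edgeR adjusted p = 0.0354). With the replicate number as a block, Psap is not called (edgeR adjusted p = 0.0514) and 9 members are.

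Without sh-ctrl library 3, none of the 7 rises is called, and all keep their direction, with log2 fold changes of 0.34 to 0.81 and edgeR adjusted p of 0.0515 for Ctsa to 0.138 for Psap. Cln6 and Naglu are then the 2 members still called, and the number of genes called in all falls from 3414 to 734. Lamp1, Ctsa, Gusb and Hexa held in the 5 other fits that left out 1 library, Ctsz in 2 of 6, and Glb1 and Psap in 1 of 6 each.

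Some cell type markers also differed. The macrophage and monocyte sum was 21.8 to 31.0 CPM with miR-125b and 7.57 to 17.6 in sh-ctrl, and 3 of the 7 tested markers of that list were called higher. Of the megakaryocyte and platelet markers, 1 was called higher and 6 lower of 12. The mast cell sum overlapped between the groups, at 303.2 to 717.1 CPM with miR-125b and 201.7 to 445 in sh-ctrl. Of its 12 markers 2 were called higher (16.7%), near the 12.1% of all genes. The neutrophil granule sum also overlapped, at 88.2 to 164.9 CPM with miR-125b and 51.3 to 108.3 in sh-ctrl, with 2 of 5 tested called higher. All these calls stand beside 12.1% of all genes called higher and 12.2% called lower. The part of these markers, and of the ribosomal RNA-like genes, in the lysosomal changes was not tested. With the ribosomal RNA-like genes left out of the fit, 11 members are called, 8 of them higher.

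**Figure D3:**
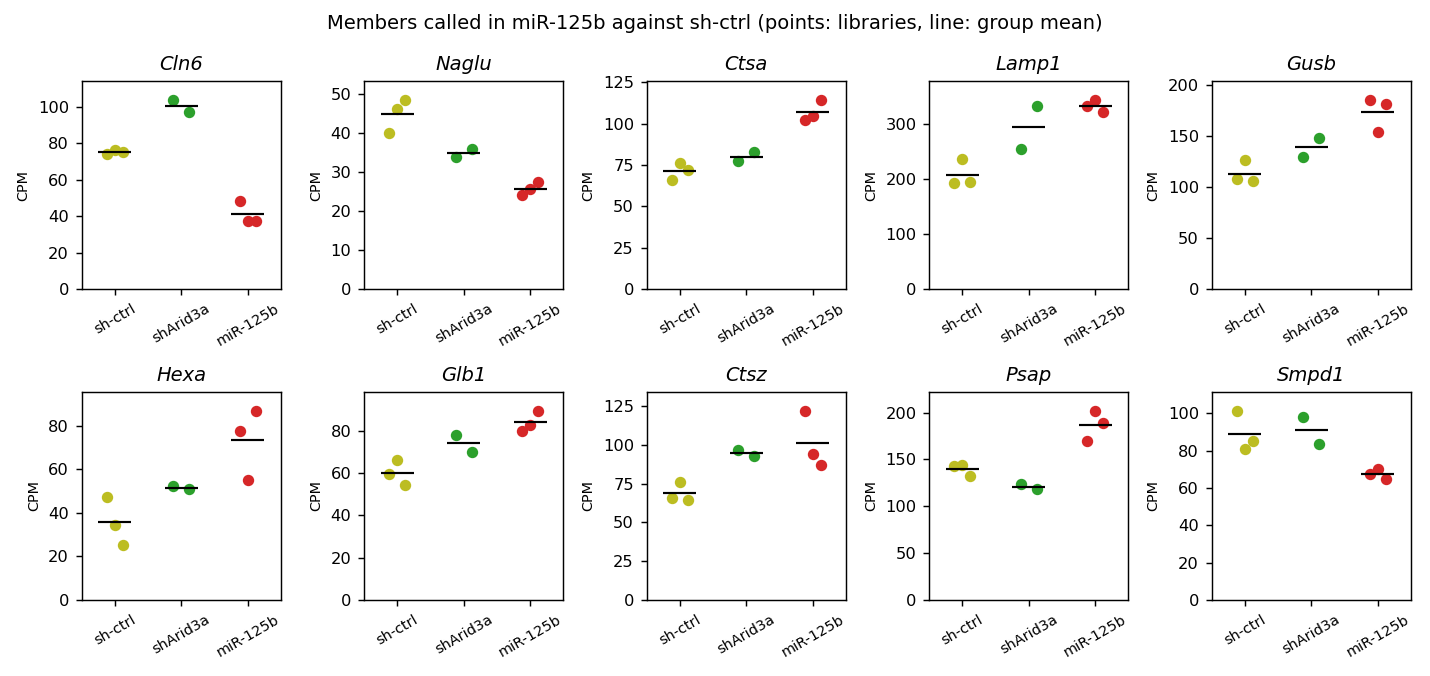
Levels of the 10 lysosomal genes called in miR-125b against sh-ctrl, in the 8 libraries of the hairpin and miR-125b table; the y axis is CPM with TMM scaling starting at 0, points are libraries and lines are group means. For Cln6 the shArid3a libraries (103.6 and 96.7 CPM) lie above sh-ctrl and the miR-125b libraries (37.1 to 48.2) below it.

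The seed-matched members did not move one way. Of the 7, Cln6 fell and Ctsa rose. Neu1 had 12.2, 11.2 and 15.4 CPM in sh-ctrl and 4.21, 9.63 and 10.6 with miR-125b, lower in all 3 libraries but not called (log2 fold change -0.68, edgeR adjusted p = 0.144). Gaa, with an 8mer in 1 of 5 coding transcripts, had 44.6, 46.3 and 41.3 CPM and then 53.0, 62.3 and 80.7, just short of the threshold (log2 fold change 0.55, edgeR adjusted p = 0.0505). Ctsc had a log2 fold change of 0.03 and Gla of -0.01, both not called, and Sgsh had under 1 CPM in all 8 libraries. Members with a promoter core were called at 3 higher and 1 lower of 12, and those with a window but no core at 4 higher and 2 lower of 18 tested. Their median log2 fold changes were 0.34 and 0.13.

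The transcripts of Tfeb and Tfe3, the members whose proteins read the core, were not called. Tfeb had 12.3, 7.25 and 10.3 CPM in sh-ctrl and 9.10, 5.50 and 6.43 with miR-125b (log2 fold change -0.52, edgeR adjusted p = 0.297), with overlapping groups. Tfe3 had 31.1, 25.7 and 27.6 CPM and then 30.6, 27.3 and 33.6 (log2 fold change 0.10, edgeR adjusted p = 0.666; -0.09 with library totals).

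With shArid3a, no member was called against sh-ctrl, of 32 tested, against 0.0857% of all genes. At an unadjusted p under 0.05 there were 5 members and 3616 genes, and DESeq2 called 0 members and 1323 genes. The median log2 fold change of the members was 0.08 (-0.10 with library totals), against -0.02 over all genes (-0.22). It was -0.09 without shArid3a library 1 (-0.09 over all genes) and 0.14 without library 3 (-0.02). The 2 shArid3a libraries were above all sh-ctrl libraries for 11 members and below them for 3, against 22.9% and 21.3% of all genes. Lamp1 had the lowest p, with 254.2 and 332.8 CPM in shArid3a against the 192.6 to 235.6 of sh-ctrl (log2 fold change 0.47, SE 0.155, edgeR adjusted p = 0.120). Cln6 had 103.6 and 96.7 CPM, above its sh-ctrl values (log2 fold change 0.39, edgeR adjusted p = 0.142), and Ctsz 96.6 and 92.8 (0.44, edgeR adjusted p = 0.142). Cd63 had 578.6 and 988.6 CPM, so that library 3 alone lay above sh-ctrl (log2 fold change 0.53, edgeR adjusted p = 0.166). Lamp2 had 104.2 and 116.9 CPM (log2 fold change 0.16, -0.03 with library totals, edgeR adjusted p = 0.440). Tfeb, at 13.6 and 5.79 CPM (log2 fold change -0.05, edgeR adjusted p = 0.951), and Tfe3, at 25.9 and 24.01 (log2 fold change -0.20, edgeR adjusted p = 0.495), overlapped with sh-ctrl. The comparisons of shArid3a and of miR-125b share the 3 sh-ctrl libraries.

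**Figure D4:**
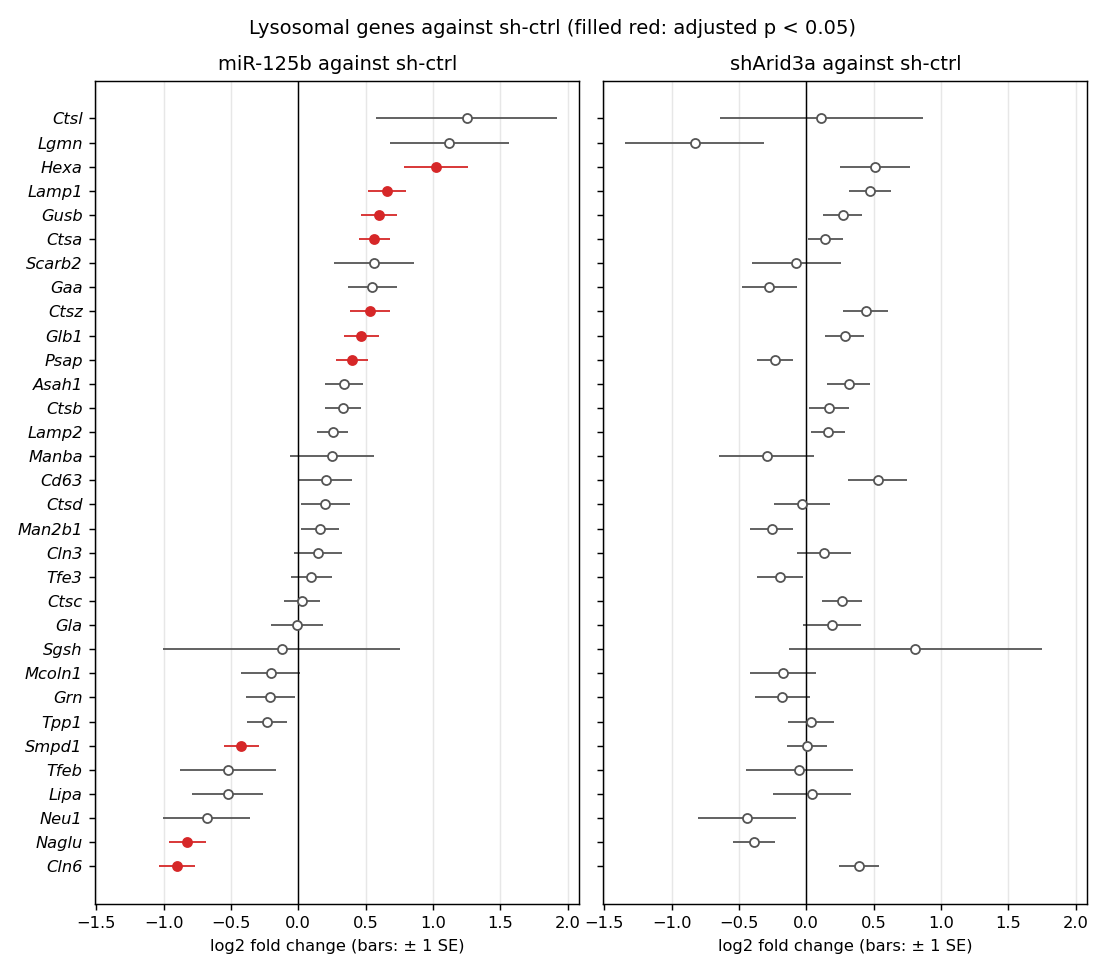
Log2 fold changes of the 32 tested lysosomal genes against sh-ctrl, for miR-125b (left) and shArid3a (right), ordered by the miR-125b value; bars are 1 SE each way and filled red points have an edgeR adjusted p under 0.05. On the left 7 genes are called higher and 3 lower, on the right none, and Cln6 lies at -0.90 on the left and 0.39 on the right; both panels share the same sh-ctrl libraries.

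In the main fit, Cln6 was also the member that differed between miR-125b and shArid3a when these were compared directly. Its log2 fold change was -1.29 (SE 0.147, edgeR adjusted p = 0.00456), and it was the 1 member called of 32 tested, against 1.35% of all genes. Of all genes 0.664% were called higher and 0.686% lower. The median log2 fold change of the members was 0.09, against -0.01 over all genes. The call held in 12 of 13 alternatives and was lost without shArid3a library 1 (edgeR adjusted p = 0.0537). Psap had 123.5 and 118 CPM in shArid3a, below its 169.6 to 202.2 with miR-125b (log2 fold change 0.63, edgeR adjusted p = 0.0519). Gaa had 42.2 and 31.7 CPM, below its 53.0 to 80.7 with miR-125b (log2 fold change 0.82, edgeR adjusted p = 0.0898). Of the 13 alternatives, 6 called Psap and 3 called Gaa. Lamp1 (0.19, edgeR adjusted p = 0.646), Lamp2 (0.09, 0.812), Cd63 (-0.33, 0.545), Tfeb (-0.47, 0.642) and Tfe3 (0.29, 0.479) were not called on the same log2 scale and test.

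In the libraries labelled Arid3a, no member was called against LUC of 33 tested (Ctsh did not pass the filter), as no gene was in all (0%). At an unadjusted p under 0.05 there were 6 members and 2885 genes, and DESeq2 called 2 members and 1198 genes. The median log2 fold change was 0.11, against 0.01 over all genes, and without library 1 of the group labelled Arid3a it was 0.04, against -0.01. In the fit with all libraries 25 of 33 were above 0, and the groups did not overlap for 8 higher and 1 lower, against 12.3% and 15.2% of all genes. Lamp2 had 122.1, 115.8 and 108 CPM in LUC and 130, 153.8 and 145.8 in the libraries labelled Arid3a (log2 fold change 0.31, SE 0.0808, edgeR adjusted p = 0.104). Lipa had 19.9, 16.2 and 17.9 CPM and then 28.7, 23.2 and 23.9 (log2 fold change 0.49, edgeR adjusted p = 0.104). The 2 that DESeq2 called are these (adjusted p = 0.0255 and 0.0163), and edgeR called them with Cln6, lower, when the outlying library 1 was left out (adjusted p = 0.00509 for Lamp2 and 0.0298 for Lipa). Those 3 members stand beside 3198 of 13789 genes called in the same fit. Man2b1 had 93.8, 97.9 and 108.4 CPM and then 123.4, 112.9 and 115.3, with no overlap (log2 fold change 0.23, edgeR adjusted p = 0.171).

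Tfeb had 4.08, 4.44 and 4.07 CPM in LUC and 3.35, 3.64 and 3.14 in the libraries labelled Arid3a, lower in all 3 but not called (log2 fold change -0.31, edgeR adjusted p = 0.376). Lamp1 had 298.1, 290.5 and 270 CPM and then 281, 327.1 and 289.3 (0.06, edgeR adjusted p = 0.656). Tfe3, with 30.8, 31.6 and 33.1 CPM and then 34.3, 27.9 and 27.5, overlapped as Lamp1 did (-0.09, edgeR adjusted p = 0.690). Cd63 had 337.4, 345.5 and 322.6 CPM and then 470.5, 310.2 and 337. The 470.5 is the outlying library 1, and without it the log2 fold change goes from 0.16 (edgeR adjusted p = 0.596) to -0.05.

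The other genes of the pathway were read from 7 lists in the same fits. Of all genes tested with miR-125b against sh-ctrl, 12.1% were called higher and 12.2% lower. In miR-125b against sh-ctrl, the sorting machinery showed the lowest adjusted p. Both receptors for the mannose 6-phosphate tag fell. Igf2r, the large cation-independent receptor, had 36.1, 30.5 and 54.2 CPM in sh-ctrl and 10.3, 9.02 and 10.1 with miR-125b (log2 fold change -2.05, SE 0.279, edgeR adjusted p = 0.00432). M6pr, the small cation-dependent receptor whose 8mer is printed above, had 368.8, 374.8 and 354.9 CPM and then 240.3, 214.7 and 205.8 (log2 fold change -0.75, SE 0.118, edgeR adjusted p = 0.00609). Both calls held in all 14 alternatives. In shArid3a, M6pr had 422.3 and 448.4 CPM, above sh-ctrl, and Igf2r 30.7 and 16.4, neither called. Directly against shArid3a, M6pr was lower with miR-125b by a log2 fold change of -0.98 (edgeR adjusted p = 0.00953), a call lost without miR-125b library 2 or shArid3a library 1 (edgeR adjusted p = 0.0682 and 0.0738). Igf2r was not called there (log2 fold change -1.27, edgeR adjusted p = 0.0713), and its UTR held no match. These 2 were looked at for seed matches after their values were seen. Of the 20 sorting genes, 7 held a match, against 13.7% of all genes with a UTR, and 2 held an 8mer, M6pr and Gga2. In the other lists of the pathway, Gm2a, Ppt1 and Vps33a held an 8mer. A link between the matches and the changes was not tested.

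Vps29, a retromer subunit, rose (log2 fold change 0.58, edgeR adjusted p = 0.0124), as did Sort1, sortilin, another carrier of lysosomal cargo (1.80, edgeR adjusted p = 0.0191), from 1.47 to 2.83 CPM in sh-ctrl to 4.60 to 11.6. In all, 3 genes of the sorting list were called higher and 3 lower of 20 tested (30%), against 24.4% of all genes.

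Of 16 tested V-ATPase genes, 8 rose and 1 fell, with a median log2 fold change of 0.45. Atp6v1f, of the cytosolic V1 sector, had 162.6, 150.1 and 122.6 CPM in sh-ctrl and 251, 237.5 and 234.4 with miR-125b (log2 fold change 0.71, edgeR adjusted p = 0.0107). The accessory subunits Atp6ap1 (0.54, edgeR adjusted p = 0.0158) and Atp6ap2 (0.56, edgeR adjusted p = 0.0222) also rose. Atp6v0a1, a subunit of the membrane sector, fell by 0.59 on the log2 scale (edgeR adjusted p = 0.0107). With library totals 3 genes of this list are called, 1 of them higher, and without sh-ctrl library 3, 2 are called, 1 in each direction.

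The lysosomal switch for mTORC1 included further rises. Lamtor4, of the Ragulator complex that anchors mTORC1, had 104.7, 82.3 and 72.7 CPM in sh-ctrl and 191.5, 173.6 and 184.3 with miR-125b (log2 fold change 1.06, edgeR adjusted p = 0.00519). Rraga, a Rag GTPase, had 60.0, 65.2 and 61.8 CPM and then 101.9, 115.3 and 105.1 (0.77, edgeR adjusted p = 0.00537). Lamtor1 (0.70, edgeR adjusted p = 0.0142) and Rragb (0.74, edgeR adjusted p = 0.0187) rose too, and the list had 6 higher and 1 lower of 20 tested.

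Of 7 cathepsin inhibitor genes, 3 passed the filter on low counts, and these 3 rose. Cst3, cystatin C, had 108.1, 101 and 78.0 CPM in sh-ctrl and 197.1, 172.1 and 194 with miR-125b (log2 fold change 0.95, edgeR adjusted p = 0.00616). Cstb reached 0.68 (edgeR adjusted p = 0.0353) and Cst7 0.45 (edgeR adjusted p = 0.0499), the last not called with the replicate block (edgeR adjusted p = 0.0592). Of 14 alternatives, the call held in 14 for Cst3, 9 for Cstb and 5 for Cst7. With library totals, or without sh-ctrl library 3, Cst3 alone of the 3 was called.

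Of the other membrane proteins, 1 was called higher and 4 lower of 23 (21.7% called, against 24.4% of all genes), with a median log2 fold change of -0.30. The two-pore channels Tpcn1, at 98.9, 130 and 119.3 CPM and then 62.6, 73.2 and 67.5 (log2 fold change -0.80, edgeR adjusted p = 0.00845), and Tpcn2 (-0.67, edgeR adjusted p = 0.0178) fell. Laptm4a was the 1 that rose (0.80, edgeR adjusted p = 0.0215).

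Of 35 other hydrolases and activators, 5 rose and 2 fell, so 20% were called, against 24.4% of all genes. Scpep1, a serine carboxypeptidase, rose by 1.19 (log2, edgeR adjusted p = 0.0122) and Dnase2a, the lysosomal DNase, by 0.92 (edgeR adjusted p = 0.0190). Ppt2, a thioesterase, had a log2 fold change of -2.73 (edgeR adjusted p = 0.0150) and Galc, galactosylceramidase, of -1.79 (edgeR adjusted p = 0.0302), both under 4 CPM in all 8 libraries.

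Of 29 autophagy genes, 2 rose and 5 fell, so 24.1% were called, the same share as over all genes (24.4%). Wipi1 (log2 fold change -2.07, edgeR adjusted p = 0.00791), Atg9a (-1.51, edgeR adjusted p = 0.0104) and Vps39 (-0.74, edgeR adjusted p = 0.0114) were lower, and Gabarap, which tethers autophagosome membranes, was higher (0.70, edgeR adjusted p = 0.0142). Of the 27 pathway genes chosen for this comparison, 12 were still called without sh-ctrl library 3, among them Atp6v0a1, Atp6v1f, Ppt2, Tpcn1, M6pr, Igf2r, Rraga, Lamtor4, Atg9a, Wipi1 and Cst3. Leaving out any other single library kept 20 to 23 of the 27 calls, and library totals kept 21, with no change of direction in these fits. Outside this comparison, the 7 lists had 0 calls in the main fits except in the sorting list of miR-125b against shArid3a, where M6pr was lower and Sort1 higher. Alternatives gave more calls, most in the mTORC1 switch list of Arid3a against LUC. That list had 0 to 12 calls without 1 library and 0 to 6 in the other settings. Genes called in all reached 3198 and 1198 in these 2 kinds of fit. Beside the 10 of 32 members, the share called in miR-125b against sh-ctrl was 9 of 16 for the V-ATPase, 7 of 35 for the other hydrolases, 5 of 23 for the other membrane proteins, 6 of 20 for sorting, 7 of 20 for the mTORC1 switch, 7 of 29 for autophagy and 3 of 3 for the cathepsin inhibitors, against the 24.4% of all genes.

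**Figure D5:**
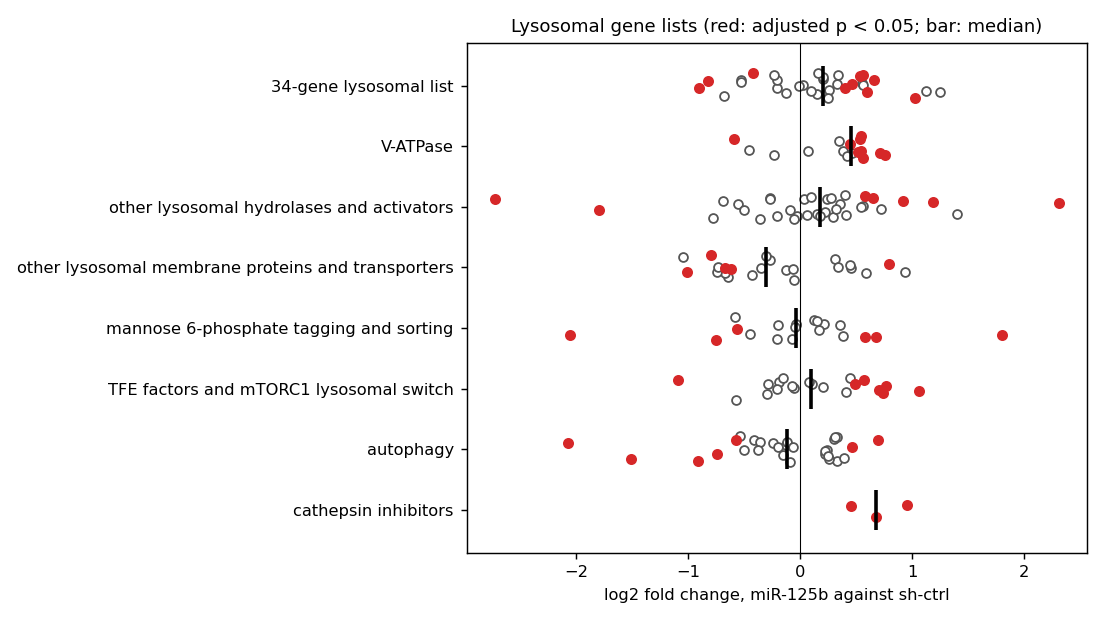
Log2 fold changes in miR-125b against sh-ctrl for the 34-gene lysosomal list and 7 other lists of the pathway; each point is a tested gene, red points have an edgeR adjusted p under 0.05, and black bars are list medians. The V-ATPase median is 0.45 and that of the other membrane proteins -0.30, with Igf2r at -2.05 as the lowest point of the sorting list.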

How the data were processed

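Read counts per gene were deposited by the authors as 3 tables of raw counts, with no normalization per the file headers, and 1 gene length column in the WT table. Per the submitters' processing notes the tools were fastp, HISAT2 2.0.5 and featureCounts with the mm10 genome; per the labels' protocols total RNA was extracted with a Zymo kit. The use of strand is not given in the sources used here, and exons of 10 members overlap a gene on the other strand and of 3 a gene on the same strand. Groups come from the labels. Tables were joined by Ensembl identifier. All tests used edgeR 4.0.16 in R 4.3.3 (TMM, filterByExpr, quasi-likelihood, group term, 1 fit per table; Benjamini-Hochberg over all genes tested). DESeq2 1.42.0, other scalings, filters, sample sets and the replicate block were alternatives. The script was tested on simulated counts. Standard errors are the log2 fold change over the root of F. Levels are counts over the library total times a TMM factor from the joined 17 libraries.

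Members and lists were chosen with earlier results of these data known. Named with every library's value were members called, the 3 with the lowest p per comparison, and Lamp1, Lamp2, Cd63, Tfeb and Tfe3; of each other list, up to 4 genes with the lowest adjusted p. One gene that this rule takes is not reported here. Per-library values of seed-matched members, and values for fewer than all libraries of other genes, add to this. Deviations from group means correlated between same-numbered miR-125b and sh-ctrl libraries at 0.449, 0.148 and 0.492. Between those with different numbers they correlated at -0.526 to 0.289. The numbers may thus mark pairs in these groups, from the data alone. The main tests did not pair them, and the replicate block was an alternative. The other groups' numbers were not taken as pairs. Lengths come from the WT table. WT entered no test. The erythroid list (11 genes found) had 3 called lower of 9 tested in miR-125b against sh-ctrl. The hepatocyte list (10 genes) had 2 called higher of 2 tested there. Its low sums were 4.43 to 6.57 CPM with miR-125b and 0.863 to 1.415 in sh-ctrl, and at most 6.57 in any library.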

Additional observations from a re-analysis of the deposited data

How the results depend on the processing

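For the members, 44 log2 fold changes had 590 alternative values, of which 528 kept direction and side of the threshold, 12 reversed, 30 lost and 20 gained a call; the cause was not tested. For 29 pathway fold changes, 346 of 403 kept both, 54 lost a call, 3 gained one and 0 reversed. The pathway genes were chosen by low adjusted p in miR-125b against sh-ctrl, so these counts cannot be compared with those of the members. In Arid3a against LUC, 2 members were called with DESeq2 and 0 to 3 in fits without 1 library, and genes called were 71 with no filter, 1198 with DESeq2 and 0 to 3198 without 1 library. In shArid3a against sh-ctrl, genes called were 20 with library totals, 1237 with no filter, 19 with 10 counts in every library, 0 without ribosomal RNA-like genes, 1323 with DESeq2 and 2 to 11 without 1 library. In miR-125b against sh-ctrl, 6 members were called with library totals and 2 to 9 without 1 library, and 734 to 2872 genes without 1 library. In miR-125b against shArid3a, 2 members were called with RLE factors, 10 counts in every library or no ribosomal RNA-like genes, 4 with no filter or DESeq2, and 0 to 3 without 1 library. Genes called there were 715 with no filter, 737 with DESeq2 and 12 to 329 without 1 library. With library totals, the log2 fold change of Lamp2 turned to -0.033 in shArid3a, and those of Ctsc to -0.17 and Tfe3 to -0.094 in miR-125b against sh-ctrl. Without 1 library at a time, values that changed sign ran from -0.049 to 0.28 for Cd63 in Arid3a against LUC, from -0.82 to 0.45 for Tfeb in shArid3a against sh-ctrl, and from -0.077 to 0.091 for Ctsc and -0.15 to 0.13 for Gla in miR-125b against sh-ctrl. In miR-125b against shArid3a they ran from -0.65 to 0.081 for Cd63, from -0.48 to 0.072 for Neu1 and from -0.97 to 0.30 for Tfeb; none of these members was called. The replicate block took the members called in miR-125b against sh-ctrl from 10 to 9 and, among named genes, changed no call but those of Psap and Cst7. In the other 3 comparisons the libraries share only a number, and the block called 0 members in Arid3a against LUC, 0 in shArid3a against sh-ctrl and 1 in miR-125b against shArid3a.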
